A study of Saccharomyces cerevisiae with 12 samples.

Results

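The MMS response of the C406A mutant of budding yeast, Saccharomyces cerevisiae, was read from 4 of the 12 arrays of the series: 2 of C406A cells treated with 0.03% methyl methanesulfonate (MMS) for 30 minutes and 2 of C406A cells without treatment. Arrays were chosen by their labels alone, and the response was described across all 5369 genes tested. The other 8 arrays held the same pair of conditions in the second mutant, C403A, and in a wild type, with 2 arrays in each group, and served to estimate the spread and to compare responses. Labels call both mutants TFIIH mutants and do not name the altered subunit; from knowledge of the study, both carry a cysteine-to-alanine change in the RING finger of Ssl1. Strain background, other alleles, growth medium and the number of clones are not given in the sources used here, and no label tells separate cultures from repeat arrays of 1 culture. The p-values therefore measure the spread between these arrays, which may be technical.

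TFIIH melts promoters so that RNA polymerase II can start, and in nucleotide excision repair it separates the strands around a damaged base. MMS methylates DNA bases. Methylated bases that block replication are removed by the glycosylase Mag1 and base excision repair, and stalled forks activate the kinases Mec1, Rad53 and Dun1, which raise ribonucleotide reductase and relieve its inhibitors. MMS also methylates proteins and other thiols and amines, and yeast answers it with a wider programme in which proteasome, chaperone, redox and carbohydrate-reserve genes rise and ribosome-building genes fall.

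Each probe set had 1 intensity per array. Values were brought to a common distribution by quantile normalization, values under a floor of 34.5 (the 20th percentile) were set to it, and all changes below are log2 differences of group means, C406A with MMS minus C406A without, with the standard error (SE) of the fit over 12 arrays and 2 arrays in each group. A gene passed, and is said to have risen or fallen, at a Benjamini-Hochberg adjusted p under 0.05 in limma's moderated test over all 5369 genes. Median deposited intensity was 262.6 and 261.1 on the C406A MMS arrays, against 195 and 184 on the C406A untreated arrays, and 184 to 310.2 over all 12. The pair of MMS arrays correlated across genes with r = 0.987 and the untreated pair with r = 0.993. The MMS pair held 68 genes with values over 2-fold apart and 19 over 4-fold apart, against 28 and 2 in the untreated pair; in 15 of those 19 the second MMS array was the lower one. All arrays were scanned on 1 day, and in each strain the untreated arrays were scanned before the MMS arrays, so scan order and treatment cannot be told apart. The strains were scanned in turn, first wild type, then C403A, then C406A. Scan order and strain therefore cannot be told apart either. The number of arrays limits the precision: the median SE of a C406A change was 0.114.

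With MMS, 684 genes rose and 604 fell in C406A, which is 12.7% and 11.2% of the genes tested and 24% together. The median change over all genes was 0, as the normalization sets it. In 34.3% of the genes tested both MMS arrays lay above both untreated arrays, and in 32.8% below. Most changes were small. The median change was 0.52 among genes that rose and -0.45 among genes that fell, and 104 genes (1.94%) passed with a change of at least 2-fold, 78 of them up (1.45%) and 26 down (0.484%). At a log2 change of 1.5 or more, 22 genes rose and 7 fell. The balance of directions rests on the scaling: 53.1% of calls were rises here, against 98.6% on values as deposited, where the median gene rose by 0.43, and 93.6% with the hybridization controls held equal, where it rose by 0.25. All directions below are therefore relative to the other genes: on values as deposited 18 of the 20 list medians below 0 (48 lists in all) were above it, while those of 60S assembly and the small-subunit processome stayed below 0 (-0.07 and -0.01). Leaving out 1 array gave 672 to 1409 calls; the count was 672 without C406A untreated 2, 679 without C406A untreated 1 and 789 without C406A MMS 2. Of the 160 genes named below that passed, 71 did not pass on deposited values relative to the median gene and 51 did not with hybridization controls treated likewise (the relative scalings), 27 in a fit of the 4 C406A arrays alone, and 6 with the floor at the 40th percentile, which shrinks changes of dim genes. They are named where they are described. The 40th percentile floor also left dim genes out of the test, with 4635 genes tested. Named genes left out there, CTT1, CYC7, ATG39 and FDO1 among them, are not counted in the 6.

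**Figure D1:**
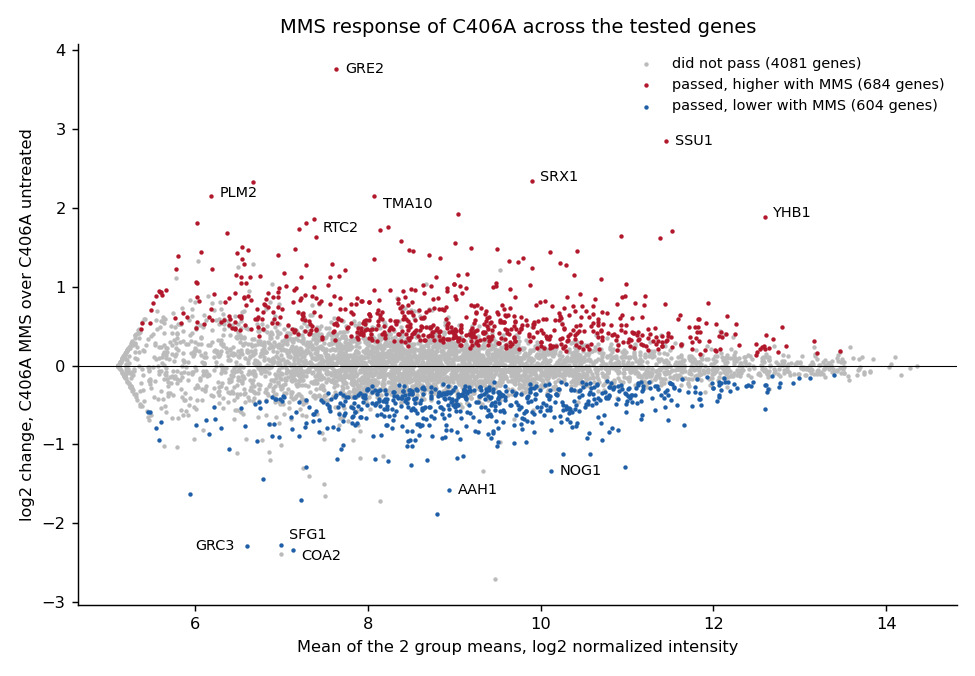
The log2 change of C406A with MMS over C406A without MMS (vertical axis) is plotted against the mean level of the gene (horizontal axis, log2 normalized intensity) for 5369 genes, with 684 genes that rose in red, 604 that fell in blue and the rest in grey. GRE2, SSU1 and SRX1 stand highest among the named genes, COA2, GRC3 and SFG1 lowest, and the narrow wedge at the left holds genes near the floor.

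The largest rise was that of GRE2, which encodes a reductase of methylglyoxal and other aldehydes. It had 778 and 654 on the MMS arrays, against 71.3 and 38.9 on the untreated arrays, a log2 change of 3.76 ± 0.49 (adjusted p = 0.000727). SSU1, the plasma membrane sulfite pump, had 6705 and 8420 on the MMS arrays, against 1072 and 1012 on the untreated arrays (2.85 ± 0.10, adjusted p = 7.69e-07), and SRX1, the sulfiredoxin that repairs overoxidized peroxiredoxins, had 2206 and 2082 on the MMS arrays, against 404 and 439.6 on the untreated arrays (2.35 ± 0.10, adjusted p = 1.82e-06). In these 3 genes both MMS arrays lay several-fold above both untreated arrays. The 15 largest changes each way were picked from genes that passed with no overlap between MMS and untreated arrays. Lack of overlap in them was therefore set by the choice. Most members named from the gene lists below were picked among genes that passed, by size of change. Lack of overlap in those is favoured by the choice too. PLM2, which encodes a forkhead-associated domain protein that binds promoters of damage-response genes, had 151 and 154 on the MMS arrays, against the floor on both untreated arrays. Its untreated level is only bounded, so the rise was at least 4.43-fold (adjusted p = 0.000273). XBP1, a repressor made under stress, was bounded in the same way with 136 and 108 on the MMS arrays, against the floor on both untreated arrays, a rise of at least 3.51-fold (adjusted p = 0.000545). YHB1, the flavohaemoglobin that removes nitric oxide, was already bright and had 11760 and 11970 on the MMS arrays, against 3319 and 3122 on the untreated arrays (1.88 ± 0.12, adjusted p = 2.17e-05). PLM2 changed by 0.04 with the floor at the 40th percentile and did not pass (adjusted p = 0.609). GRE2 changed by 2.26 with the floor at the 40th percentile and still passed.

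Several others of the 15 largest rises belong to carbohydrate, sulfur and amino acid metabolism. PGM2, the main phosphoglucomutase, had 1135 and 924 with MMS and 252 and 290.1 without (1.92 ± 0.18). RTC2, a vacuolar exporter of basic amino acids, had 299 and 334 with MMS and 82.4 and 91.2 without (1.87 ± 0.14). MET28, a cofactor of the sulfur regulator Met4, had 296 and 284 with MMS and 71.8 and 94.4 without (1.81 ± 0.26), and MET2, the homoserine acetyltransferase at the entry to methionine synthesis, had 518 and 503 with MMS and 149 and 162 without (1.72 ± 0.10). The largest adjusted p among these 4 genes was 0.00108 in limma. TMA10, a small stress-induced protein, had 571 and 561 with MMS and 122 and 134 without (2.15 ± 0.21). YNL134C, an aldehyde reductase, had 5351 and 5221 with MMS and 1659 and 1591 without (1.70 ± 0.07). SDH5, needed to attach flavin to succinate dehydrogenase, had 247 and 289 with MMS and 94.2 and 68.2 without (1.74 ± 0.28). YLR108C had 591 and 513 with MMS and 171 and 154 without (1.76 ± 0.16). FDO1, a partner of the forkhead factor Fkh1, stood apart among the 15 in its spread, with 86.4 and 442 on the MMS arrays, against 43.9 and the floor on the untreated arrays (2.33 ± 0.60, adjusted p = 0.0205). Its change rests largely on the second MMS array. FDO1 no longer passed without C406A MMS 2 or C406A untreated 1 or 2 (log2 change 1.15 to 2.51, adjusted p-values up to 0.108). Its change was 3.51 without C406A MMS 1. FDO1 did not pass in a fit of the 4 C406A arrays alone (adjusted p = 0.145). FDO1 did not pass with no filter on dim genes (adjusted p = 0.0519). RTC2 changed by 1.09, MET28 changed by 0.96 and SDH5 changed by 0.85 with the floor at the 40th percentile and still passed.

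Among the falls the 3 largest concerned dim or moderate transcripts. COA2, an assembly factor of cytochrome c oxidase, had 42.1 and 86.1 on the MMS arrays, against 297 and 311 on the untreated arrays (-2.34 ± 0.30, adjusted p = 0.000709). GRC3, a polynucleotide kinase of ribosomal RNA processing, had 54.1 and the floor on the MMS arrays, against 204 and 218 on the untreated arrays (-2.29 ± 0.22, adjusted p = 0.00018), and SFG1, a nuclear protein of pseudohyphal growth, had 72.6 and 44.5 on the MMS arrays, against 292 and 259.5 on the untreated arrays (-2.28 ± 0.30, adjusted p = 0.000741). The MMS arrays of COA2 were over 2-fold apart. AAH1, the adenine deaminase, fell with a tight spread, at 281 and 285 on the MMS arrays, against 779 and 924 on the untreated arrays (-1.58 ± 0.13, adjusted p = 8.78e-05). Genes of ribosome building and its control were also among the 15 largest falls. NOG1, a GTPase of 60S assembly, had 727 and 666 with MMS and 1593 and 1926 without (-1.33 ± 0.11). NSR1, yeast nucleolin, had 1190 and 1384 with MMS and 3267 and 3003 without (-1.29 ± 0.15). DHR2, a nucleolar RNA helicase, had 232 and 235 with MMS and 557 and 564 without (-1.26 ± 0.08). TOD6, a repressor that binds promoters of ribosome biogenesis genes, itself fell, with 279.5 and 264 with MMS and 611 and 637 without (-1.20 ± 0.08). The largest adjusted p of these 4 genes was 0.000433 in limma. COA2 changed by -1.03, GRC3 changed by -0.51 and SFG1 changed by -0.89 with the floor at the 40th percentile and still passed.

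Among the other large falls, FUR4, the uracil permease, had 470.3 and 80.6 on the MMS arrays, against 688 and 747 on the untreated arrays (-1.88 ± 0.61, adjusted p = 0.0494). The small nucleolar RNAs SNR33 and SNR9 showed the same order, SNR33 with 152 and the floor with MMS and 210.5 and 265 without (-1.71 ± 0.51) and SNR9 with 151 and 58.7 with MMS and 233 and 226 without (-1.28 ± 0.35), as did LEM3, a subunit of phospholipid flippases, with 278 and 103 with MMS and 405.8 and 368 without (-1.19 ± 0.35), and MSG5, a phosphatase of the mating and cell-wall MAP kinases, with 263 and 141 with MMS and 429 and 466 without (-1.22 ± 0.23). In all 5 the second MMS array was far below the first. SNR4 had the floor and 34.6 with MMS, against 86.1 and 133 without (-1.63 ± 0.21, adjusted p = 0.00078), and passed whichever array was left out. BIO4, of biotin synthesis, had 44 and 94.4 with MMS and 179 and 170.5 without (-1.44 ± 0.42). FUR4 no longer passed without any 1 of 11 arrays (all but C406A MMS 1) (log2 change -1.94 to -0.61, adjusted p-values up to 0.169). Its change was -3.16 without C406A MMS 1. SNR33 no longer passed without C406A untreated 1 or 2, wild-type MMS 1 or 2, wild-type untreated 1 or 2 or C403A MMS 1 or 2 (log2 change -1.88 to -1.55, adjusted p-values up to 0.164). Its change was -2.78 without C406A MMS 1 and -0.64 without C406A MMS 2. SNR9 no longer passed without C406A MMS 2 or C406A untreated 1 or 2 (log2 change -1.31 to -0.60, adjusted p-values up to 0.102). Its change was -1.97 without C406A MMS 1. LEM3 no longer passed without C406A MMS 2 or C406A untreated 1 or 2 (log2 change -1.26 to -0.48, adjusted p-values up to 0.136). Its change was -1.91 without C406A MMS 1. MSG5 changed by -0.77 without C406A MMS 2. BIO4 no longer passed without C406A MMS 1, C406A untreated 1 or 2 or C403A MMS 1 or 2 (log2 change -1.48 to -0.89, adjusted p-values up to 0.194). FUR4, SNR33, SNR9, LEM3, MSG5 and BIO4 did not pass in a fit of the 4 C406A arrays alone (adjusted p-values up to 0.229). FUR4, SNR33, SNR9, LEM3 and BIO4 did not pass with no filter on dim genes (adjusted p-values up to 0.103). FUR4 did not pass with no floor (adjusted p = 0.0568). SNR4 changed by -2.47 with no floor and still passed. FUR4 and SNR33 did not pass with no trend in the variance (adjusted p-values up to 0.0656). BIO4 changed by -0.23 with the floor at the 40th percentile and did not pass (adjusted p = 0.139). SNR33 changed by -0.65 and SNR9 changed by -0.61 with the floor at the 40th percentile and still passed.

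Of 10 genes of ribonucleotide reductase and its regulators, 6 rose and 1 fell (60% and 10%, against 12.7% and 11.2% of all genes), with a median change of 0.47. RNR1, the large subunit, had 2166 and 2084 on the MMS arrays, against 1358 and 1295 on the untreated arrays (0.68 ± 0.10, adjusted p = 0.00138). The small subunits RNR2, with 4405 and 4165 with MMS and 3166 and 2967 without (0.48 ± 0.05), and RNR4, with 6192 and 6485 with MMS and 5338 and 5193 without (0.27 ± 0.05), rose by less from high levels. DIF1, which controls the nuclear localization of the small subunits, was the member that fell. It had 323 and 276 on the MMS arrays, against 482 and 532 on the untreated arrays (-0.76 ± 0.11, adjusted p = 0.00148 in limma). RFX1, the repressor of these genes, rose, with 258 and 234 with MMS and 163 and 163 without (0.59 ± 0.09). In each of these 5 the arrays of the groups did not overlap. SML1, the protein inhibitor of Rnr1, had 3455 and 3508 with MMS and 4017 and 3897 without (-0.18 ± 0.06, adjusted p = 0.0543) and did not pass. RNR4 changed by 0.09 with median scaling and did not pass (adjusted p = 0.48). RNR2, RNR4 and RFX1 passed under neither relative scaling (adjusted p-values up to 0.738). DIF1 did not pass on deposited values relative to the median gene (adjusted p = 0.129). Under them RNR4 changed by 0.13 and 0.13.

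HUG1, a small inhibitor of the reductase that marks checkpoint activation, had 90.8 and 156 on the MMS arrays, against 61.6 and 64.5 on the untreated arrays (0.92 ± 0.23, adjusted p = 0.0187). RNR3, the damage-induced second large subunit, had 58.1 and 38.6 on the MMS arrays, against the floor on both untreated arrays; its measured change of 0.46 ± 0.19 did not pass (adjusted p = 0.112), although both MMS arrays lay above the floor. Wild type had 138 and 161 with MMS for the same gene. The kinase DUN1 had 439 and 415 on the MMS arrays, against 223 and 271 on the untreated arrays (0.79 ± 0.11, adjusted p = 0.00087). Of 16 checkpoint kinases and sensors, 3 rose (18.8%) and 0 fell, with a median of 0.02. Besides DUN1 these were RAD17, a subunit of the checkpoint clamp, with 75.8 and 68.7 with MMS and 54.1 and 38.5 without (0.66 ± 0.20), and TOF1, of the fork-protection complex, with 274 and 254 with MMS and 206 and 213 without (0.33 ± 0.10). The central kinase RAD53 had 77.2 and 108 with MMS and 58.9 and 64.1 without (0.58 ± 0.27, adjusted p = 0.15) and did not pass. HUG1 no longer passed without C406A MMS 2 or C406A untreated 1 or 2 (log2 change 0.53 to 0.95, adjusted p-values up to 0.102). RAD17 no longer passed without C406A MMS 1 or 2, C406A untreated 2, wild-type MMS 1 or 2 or C403A MMS 1 or 2 (log2 change 0.42 to 0.73, adjusted p-values up to 0.235). TOF1 no longer passed without C406A MMS 1 or 2 or C406A untreated 1 or 2 (log2 change 0.28 to 0.39, adjusted p-values up to 0.143). RNR3 passed without C406A MMS 2 (0.76, adjusted p = 0.0219). HUG1, RAD17 and TOF1 did not pass in a fit of the 4 C406A arrays alone (adjusted p-values up to 0.112). RAD17 did not pass with no floor (adjusted p = 0.0577). RAD17 did not pass with median scaling (adjusted p = 0.0666). HUG1 changed by 0.04 with the floor at the 40th percentile and did not pass (adjusted p = 0.841). HUG1, RAD17 and TOF1 passed under neither relative scaling (adjusted p-values up to 0.56). DUN1 did not pass on deposited values relative to the median gene (adjusted p = 0.0518).

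**Figure D2:**
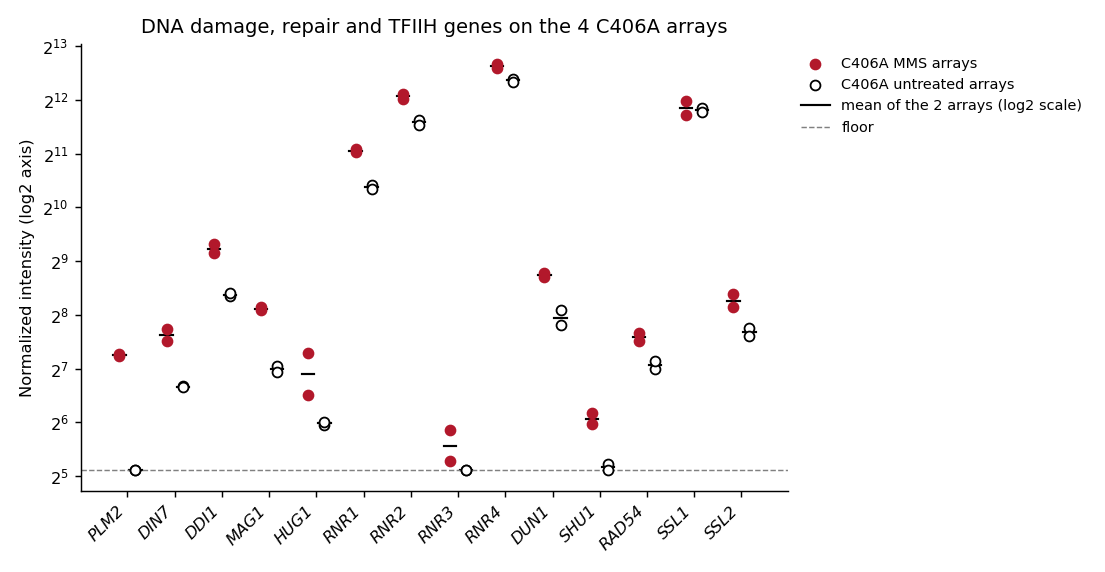
Normalized intensity on a log2 axis is shown for 14 genes, with the 2 C406A MMS arrays as filled red points to the left and the 2 C406A untreated arrays as open points to the right, a bar at each mean and a dashed line at the floor. The MMS arrays lie above the untreated arrays in every gene but SSL1, where the pairs overlap; PLM2 and RNR3 lie at the floor on both untreated arrays.

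Of 14 genes of alkylation and base excision repair, 4 rose (28.6%) and none fell, with a median of 0.08. MAG1, the 3-methyladenine glycosylase that starts repair of MMS damage, had 271 and 283 on the MMS arrays, against 133 and 122 on the untreated arrays (1.12 ± 0.13, adjusted p = 0.000472). Its divergent neighbour DDI1, a ubiquitin-binding proteasome shuttle counted here for its shared promoter, had 570.1 and 635 on the MMS arrays, against 327 and 338 on the untreated arrays (0.86 ± 0.09, adjusted p = 0.000243). Both MMS arrays lay above both untreated arrays in each gene. PCD1, which removes oxidized nucleotides, had 170.1 and 199 with MMS and 123 and 122 without (0.59 ± 0.13), and NTG1, a glycosylase and abasic-site lyase, had 771 and 709 with MMS and 589 and 526 without (0.41 ± 0.11). OGG1, for oxidized guanine, had 438 and 412 with MMS and 416 and 382 without (0.09 ± 0.09, adjusted p = 0.495). APN1, the main abasic endonuclease, gave no usable change, with 862 and 124 on the MMS arrays, against 899.6 and 768 on the untreated arrays (adjusted p = 0.162): the second MMS array alone was low. PCD1 no longer passed without C406A MMS 2 or C406A untreated 1 or 2 (log2 change 0.48 to 0.59, adjusted p-values up to 0.0781). NTG1 no longer passed without C406A MMS 1 or 2 or C406A untreated 2 (log2 change 0.33 to 0.47, adjusted p-values up to 0.15). NTG1 did not pass in a fit of the 4 C406A arrays alone (adjusted p = 0.0551). PCD1 changed by 0.31 with the floor at the 40th percentile and still passed. PCD1 and NTG1 passed under neither relative scaling (adjusted p-values up to 0.347).

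For transcripts of TFIIH itself the share of risers was near that of all genes. Of its 10 subunits tested, 1 rose (10%, against 12.7% of all genes) and none fell, and the median was 0.06. SSL1 had 4038 and 3389 on the MMS arrays, against 3691 and 3485 on the untreated arrays, overlapping values with a change of 0.04 ± 0.08 (adjusted p = 0.728); a probe set does not read a substitution in the protein, so this value does not check the genotype. SSL2, the helicase that opens promoters, was the subunit that rose, with 283 and 333 on the MMS arrays, against 216 and 195 on the untreated arrays (0.58 ± 0.12, adjusted p = 0.00763). Of 16 genes of nucleotide excision repair outside TFIIH, 4 rose (25%) and none fell (median 0.26). These were RFA1 with 2233 and 2016 with MMS and 1193 and 1162 without (0.85 ± 0.08), RFA2 with 2181 and 1810 with MMS and 1301 and 1330 without (0.59 ± 0.09) and RFA3 with 2870 and 3019 with MMS and 2251 and 2313 without (0.37 ± 0.08), the 3 subunits of the single-strand DNA binding protein RPA, and RAD2, the nuclease that makes the incision 3′ of the damage, which changed by 0.32 ± 0.10. All 4 were higher on both MMS arrays. Among 12 subunits of RNA polymerase II, 0 rose and 6 fell (50%, median -0.21), led by RPC10, with 758 and 832 with MMS and 1081 and 1038 without (-0.42 ± 0.09), and RPB8, with 2134 and 2190 with MMS and 2867 and 2873 without (-0.41 ± 0.05), which RNA polymerases I and III share. SSL2 no longer passed without C406A MMS 2 or C406A untreated 2 (log2 change 0.46 to 0.51, adjusted p-values up to 0.0603). RFA3 no longer passed without C406A MMS 2 or C406A untreated 1 (log2 change 0.33 to 0.35, adjusted p-values up to 0.0622). RAD2 no longer passed without C406A MMS 1 or 2, C406A untreated 1 or 2 or C403A MMS 1 or 2 (log2 change 0.30 to 0.35, adjusted p-values up to 0.156). RPC10 no longer passed without C406A MMS 1 or C406A untreated 1 (log2 change -0.39 to -0.35, adjusted p-values up to 0.0611). SSL2 and RAD2 did not pass in a fit of the 4 C406A arrays alone (adjusted p-values up to 0.0566). SSL2, RFA3, RAD2, RPC10 and RPB8 passed under neither relative scaling (adjusted p-values up to 0.507).

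Among genes of homologous recombination the share of risers was near that of all genes: of 27 tested, 3 rose (11.1%, against 12.7%) and none fell (median 0.08). SHU1, of the Shu complex that promotes error-free bypass, had 62.2 and 72 on the MMS arrays, against 37.3 and the floor on the untreated arrays (0.90 ± 0.18, adjusted p = 0.00696). The translocase RAD54 had 203 and 183 with MMS and 127 and 140.4 without (0.53 ± 0.13) and its relative RDH54 had 941 and 909 with MMS and 778 and 818 without (0.21 ± 0.06). Of 15 genes of translesion synthesis and post-replication repair, 4 rose (26.7%) and 1 fell (median 0.09). POL30, the sliding clamp PCNA, had 1557 and 1426 on the MMS arrays, against 984 and 892 on the untreated arrays (0.67 ± 0.07, adjusted p = 0.000299), the histone chaperone ASF1 had 939 and 912 with MMS and 655 and 608 without (0.55 ± 0.07), and RAD5, the ubiquitin ligase for PCNA, had 126 and 132 with MMS and 86.2 and 85.2 without (0.59 ± 0.15). REV1, a translesion polymerase, fell, with 507 and 593 on the MMS arrays, against 833 and 848 on the untreated arrays (-0.62 ± 0.10, adjusted p = 0.00186). RAD54 no longer passed without C406A MMS 1 or C406A untreated 1 (log2 change 0.46, adjusted p-values up to 0.1). RDH54 no longer passed without C406A MMS 1 or 2 or C406A untreated 1 or 2 (log2 change 0.18 to 0.25, adjusted p-values up to 0.16). RAD5 no longer passed without C406A MMS 1 or 2 or C406A untreated 1 or 2 (log2 change 0.55 to 0.63, adjusted p-values up to 0.0945). RAD54 and RDH54 did not pass in a fit of the 4 C406A arrays alone (adjusted p-values up to 0.0667). SHU1 changed by 1.67 with no floor and did not pass (adjusted p = 0.114). RAD5 changed by 0.00 with the floor at the 40th percentile and did not pass (adjusted p = 1). SHU1, RAD54, RDH54, RAD5 and REV1 passed under neither relative scaling (adjusted p-values up to 0.641). ASF1 did not pass on deposited values relative to the median gene (adjusted p = 0.128).

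DIN7, a damage-induced mitochondrial nuclease, was the riser among 8 mismatch repair genes (12.5%, against 12.7% of all genes, median 0.06). It had 184 and 212 on the MMS arrays, against 102 and 101 on the untreated arrays (0.96 ± 0.13, adjusted p = 0.000934 in limma). Of 43 genes of the replication machinery, 5 rose (11.6%) and 1 fell (2.33%), with a median of 0.03, so the share of risers was near that of all genes. CDC45, a helicase component, had 213 and 188 with MMS and 122 and 98.9 without (0.86 ± 0.14) and DPB2, a subunit of DNA polymerase epsilon, had 521 and 488 with MMS and 358 and 358 without (0.49 ± 0.07). Both genes were higher on both MMS arrays. MCM7, of the replicative helicase, was the one that fell, with 348 and 291 with MMS and 441 and 412 without (-0.42 ± 0.12). MCM7 no longer passed without C406A MMS 2 or C406A untreated 1 or 2 (log2 change -0.47 to -0.29, adjusted p-values up to 0.199). MCM7 did not pass in a fit of the 4 C406A arrays alone (adjusted p = 0.0851). DIN7 changed by 0.41 and CDC45 changed by 0.43 with the floor at the 40th percentile and still passed. DPB2 and MCM7 passed under neither relative scaling (adjusted p-values up to 0.512). CDC45 did not pass on deposited values relative to the median gene (adjusted p = 0.0785).

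The proteasome rose almost as a whole. Of 35 subunits and assembly factors, 30 rose (85.7%, against 12.7% of all genes), none fell, and all changes lay between 0.16 and 0.69 with a median of 0.38. The base subunits RPT4, with 1740 and 1674 with MMS and 1050 and 1062 without (0.69 ± 0.13), and RPT2, with 1580 and 1620 with MMS and 1014 and 1035 without (0.64 ± 0.06), and the lid subunit RPN6, with 2386 and 2390 with MMS and 1568 and 1563 without (0.61 ± 0.08), were among the largest. All 35 members were higher on both MMS arrays than on either untreated array, as were 34.3% of all genes. RPN4, the activator of proteasome genes, rose by a like amount, with 824 and 957 on the MMS arrays, against 599 and 616 on the untreated arrays (0.55 ± 0.08, adjusted p = 0.00146). Of 37 genes of the ubiquitin system, 14 rose (37.8%) and none fell (median 0.24). DOA4, which recycles ubiquitin, had 179 and 171 with MMS and 96.6 and 81.5 without (0.98 ± 0.15). UBI4, the polyubiquitin gene, had 2597 and 2706 with MMS and 1447 and 1454 without (0.87 ± 0.06), and CDC53, the cullin of SCF ligases, had 754 and 853 with MMS and 462 and 476 without (0.77 ± 0.10). UFD1, a cofactor of the Cdc48 segregase, had 634 and 602 with MMS and 355 and 387 without (0.74 ± 0.10). No array of one group reached the other in these 4 genes, and their largest adjusted p was 0.00146. DOA4 changed by 0.24 with the floor at the 40th percentile and did not pass (adjusted p = 0.115). RPT4, RPN6, RPN4 and UFD1 did not pass on deposited values relative to the median gene (adjusted p-values up to 0.138).

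Of 29 heat shock and cytosolic chaperone genes, 18 rose (62.1%) and none fell (median 0.49). BTN2, which gathers misfolded proteins, had 1114 and 1272 on the MMS arrays, against 376 and 488 on the untreated arrays (1.47 ± 0.16), and the small heat shock protein HSP42 had 2409 and 2056 on the MMS arrays, against 639 and 1038 on the untreated arrays (1.45 ± 0.25). HSP26, another small heat shock protein, had 1368 and 1145 with MMS and 566 and 438 without (1.33 ± 0.24), and HSP78, a mitochondrial disaggregase, had 1932 and 1799 with MMS and 723 and 796 without (1.30 ± 0.09). All 4 exceeded 2-fold, and their largest adjusted p was 0.0041. HSF1, the heat shock factor, had 490.2 and 442 with MMS and 325 and 335 without (0.50 ± 0.09, adjusted p = 0.00451). Of 28 genes of folding in the endoplasmic reticulum, 10 rose (35.7%) and none fell, with a median of 0.12. ERO1, the oxidase that supplies disulfide bonds, had 2074 and 1163 with MMS and 922 and 951 without (0.73 ± 0.22), and MPD1, a disulfide isomerase, had 335 and 393 with MMS and 227 and 226 without (0.68 ± 0.13). HAC1, whose messenger RNA is spliced in the unfolded protein response, had 2550 and 2588 with MMS and 3099 and 2690 without (-0.17 ± 0.20, adjusted p = 0.575) and did not pass; splicing was not read by this probe set. ERO1 no longer passed without C406A MMS 1, C406A untreated 1 or 2, wild-type untreated 2, C403A MMS 1 or 2 or C403A untreated 1 (log2 change 0.31 to 0.75, adjusted p-values up to 0.162). Its change was 1.14 without C406A MMS 2. ERO1 did not pass in a fit of the 4 C406A arrays alone (adjusted p = 0.175). ERO1 did not pass with no filter on dim genes (adjusted p = 0.0803). ERO1 did not pass with no trend in the variance (adjusted p = 0.0536). HSF1 and MPD1 passed under neither relative scaling (adjusted p-values up to 0.246). ERO1 did not pass on deposited values relative to the median gene (adjusted p = 0.0512).

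Of 37 genes of thioredoxin, glutathione and peroxide defence, 18 rose (48.6%) and none fell (median 0.23). After SRX1 came ATR1, a multidrug transporter regulated by Yap1, with 320.1 and 261 with MMS and 68.9 and 127 without (1.63 ± 0.25), and GPX2, a peroxidase, with 1833 and 2052 with MMS and 806 and 799.6 without (1.27 ± 0.12). CTT1, the cytosolic catalase, had 134 and 132 with MMS and 66.6 and 61.7 without (1.05 ± 0.13). YAP1, the activator of many of these genes, had 770.5 and 729 with MMS and 418 and 378 without (0.92 ± 0.09, adjusted p = 0.000252). All 4 were separated between groups. Of 7 genes of methylglyoxal detoxification 4 rose (57.1%, against 12.7% of all genes), with a median of 0.51. One was GRE2, the largest rise of all. The others were GCY1 (969 and 1081 with MMS and 456 and 541 without, 1.04 ± 0.22), GRE3 (621 and 555 with MMS and 394 and 385 without, 0.59 ± 0.08) and YPR1 (1085 and 1185 with MMS and 959.6 and 985 without, 0.22 ± 0.07). All 4 are aldehyde or ketone reductases. Among 3 tested genes of the sulfite regulator Fzf1, SSU1 and YHB1 rose (66.7%), while FZF1 itself had 332 and 350.5 with MMS and 359 and 362 without (-0.08 ± 0.13, adjusted p = 0.695). None of the 4 aryl-alcohol dehydrogenases tested passed (median 0.39). In wild type 3 of them did, where 33% of all genes passed, and no difference between the strains passed. GCY1 no longer passed without C406A MMS 2 or C406A untreated 1 (log2 change 0.92 to 0.96, adjusted p-values up to 0.063). YPR1 no longer passed without any 1 of 9 arrays (all but C406A MMS 1, C403A untreated 1 and C403A untreated 2) (log2 change 0.16 to 0.24, adjusted p-values up to 0.247). ATR1 and YPR1 did not pass in a fit of the 4 C406A arrays alone (adjusted p-values up to 0.0844). YPR1 did not pass with no trend in the variance (adjusted p = 0.0633). YPR1 did not pass with median scaling (adjusted p = 0.0697). ATR1 changed by 0.96 with the floor at the 40th percentile and still passed. YPR1 passed under neither relative scaling (adjusted p-values up to 0.588). GRE3 did not pass on deposited values relative to the median gene (adjusted p = 0.146).

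Genes of the general stress response under Msn2 and Msn4 had the highest median of the larger lists, 0.71, with 26 of 42 up (61.9%) and none down. Besides TMA10, PGM2 and XBP1 above, DDR2 had 3259 and 3596 on the MMS arrays, against 959 and 1244 on the untreated arrays (1.65 ± 0.21, adjusted p = 0.000654) and RTC3 had 542 and 611 on the MMS arrays, against 166 and 221 on the untreated arrays (1.59 ± 0.25, adjusted p = 0.00206). Both are small proteins made under many stresses. The activators themselves did not pass, with MSN2 at 427 and 417 with MMS and 405 and 404 without (0.06 ± 0.09) and MSN4 at 828 and 950.2 with MMS and 759 and 800 without (0.19 ± 0.09, adjusted p = 0.15). Of 20 genes of trehalose and glycogen metabolism, 17 rose (85%) and none fell, with a median of 0.62. These included GSY1, a glycogen synthase, with 347 and 300.4 with MMS and 144 and 134 without (1.22 ± 0.16), GLC3, the glycogen branching enzyme, with 780 and 786 with MMS and 328 and 376 without (1.16 ± 0.10), and TSL1, a subunit of trehalose synthase, with 1934 and 2037 with MMS and 831 and 956 without (1.16 ± 0.09). Each more than doubled in the log2 mean, with both MMS arrays above both untreated arrays. Of 34 autophagy genes, 13 rose (38.2%) and none fell (median 0.27), led by the kinase ATG1 with 207 and 184 with MMS and 76.7 and 96.9 without (1.18 ± 0.28), the receptor ATG39 with 104 and 81.8 with MMS and 49.2 and 39.96 without (1.06 ± 0.19) and ATG3, of Atg8 lipidation, with 239 and 225 with MMS and 136 and 99.7 without (0.99 ± 0.14). ATG1 no longer passed without C406A MMS 1 or C406A untreated 1 (log2 change 1.01 to 1.09, adjusted p-values up to 0.0955). ATG39 did not pass with no floor (adjusted p = 0.602). ATG1 changed by 0.39 and ATG3 changed by 0.64 with the floor at the 40th percentile and still passed.

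Amino acid pathways moved in part. Of 40 genes of sulfur amino acid synthesis and uptake, 19 rose (47.5%) and 2 fell (5%), with a median of 0.21. After MET28 and MET2 came STR3, a cystathionine beta-lyase, with 1441 and 1490 with MMS and 623 and 618 without (1.24 ± 0.09), and SUL2, a sulfate permease, with 625 and 506 with MMS and 272 and 284 without (1.02 ± 0.11). Both doubled without overlap. The genes that fell were MET31, a DNA-binding partner of Met4, with 179 and 126 with MMS and 250.5 and 277 without (-0.81 ± 0.22), and SAH1, which hydrolyses S-adenosylhomocysteine, with 4467 and 4462 with MMS and 5495 and 5394 without (-0.29 ± 0.05). Of 14 arginine genes, 7 rose (50%) and 1 fell (7.14%), with a median of 0.30. ARG3, ornithine carbamoyltransferase, had 416 and 338 with MMS and 199.8 and 185 without (0.96 ± 0.15) and ORT1, the mitochondrial ornithine carrier, had 783 and 772 with MMS and 445 and 474 without (0.76 ± 0.08). CAR2, of arginine breakdown, fell, with 3497 and 3021 with MMS and 4284 and 3975 without (-0.34 ± 0.07). MET31 no longer passed without C406A MMS 2 or C406A untreated 1 or 2 (log2 change -0.89 to -0.56, adjusted p-values up to 0.156). CAR2 no longer passed without C406A MMS 2 or C406A untreated 1 (log2 change -0.29 to -0.24, adjusted p-values up to 0.0682). MET31 and CAR2 did not pass in a fit of the 4 C406A arrays alone (adjusted p-values up to 0.0786). SAH1 changed by -0.44 with median scaling and still passed. SAH1 and CAR2 passed under neither relative scaling (adjusted p-values up to 0.148). MET31 did not pass on deposited values relative to the median gene (adjusted p = 0.126).

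Of 11 lysine genes, 4 rose (36.4%) and 1 fell (median 0.06). Besides RTC2, these were LYS1, the last enzyme of the pathway, with 2102 and 1791 with MMS and 1430 and 1413 without (0.45 ± 0.08), and the pair of homocitrate synthases LYS20, with 10970 and 9475 with MMS and 8397 and 8026 without (0.31 ± 0.07), and LYS21, with 3278 and 3080 with MMS and 2679 and 2734 without (0.23 ± 0.06), which are similar enough in sequence that their probe sets may share signal. LYS4, homoaconitase, fell, with 637 and 644 with MMS and 862 and 809 without (-0.38 ± 0.07). Of 52 other amino acid genes under Gcn4, 20 rose (38.5%) and 4 fell (7.69%), and the median stayed at 0.08. SNZ1, of pyridoxine synthesis, had 2020 and 2022 with MMS and 1168 and 1216 without (0.76 ± 0.08), ADH5, an alcohol dehydrogenase, had 1686 and 1755 with MMS and 1009 and 1034 without (0.75 ± 0.10), and SER33, of serine synthesis, had 978 and 969 with MMS and 622 and 568 without (0.71 ± 0.08). The 3 genes had no overlap between groups. GCN4 had 6117 and 5960 on the MMS arrays, against 5943 and 6067 on the untreated arrays, overlapping values (0.01 ± 0.06, adjusted p = 0.946); it is controlled mainly in translation, which arrays do not read. LYS20 no longer passed without C406A MMS 1 or C406A untreated 2 (log2 change 0.21 to 0.28, adjusted p-values up to 0.0785). LYS21 no longer passed without C406A MMS 1 or C406A untreated 1 or 2 (log2 change 0.19 to 0.25, adjusted p-values up to 0.0969). LYS4 no longer passed without C406A untreated 1 (log2 change -0.34, an adjusted p of 0.054). LYS1 and LYS20 did not pass in a fit of the 4 C406A arrays alone (adjusted p-values up to 0.0839). LYS21 did not pass with median scaling (adjusted p = 0.166). LYS20 changed by 0.10 with median scaling and did not pass (adjusted p = 0.569). LYS1, LYS20, LYS21 and LYS4 passed under neither relative scaling (adjusted p-values up to 0.682). Under them LYS20 changed by 0.14 and 0.14.

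Ribosome building gave the clearest falls. Of 70 genes of 60S subunit assembly, 60 fell (85.7%, against 11.2% of all genes) and none rose, with a median of -0.52 and a highest value of -0.15. Of 55 genes of the small-subunit processome, 41 fell (74.5%) and none rose (median -0.47). After GRC3 and NOG1, the 60S genes that fell most were RSA4, an assembly factor of the late nucleolus, with 250.2 and 259 on the MMS arrays, against 474 and 567 on the untreated arrays (-1.03 ± 0.23), and REA1, the large AAA ATPase that releases it, with 589 and 586 on the MMS arrays, against 1196 and 1124 on the untreated arrays (-0.98 ± 0.12). In the processome, UTP23 had 756 and 906 on the MMS arrays, against 1807 and 1800 on the untreated arrays (-1.12 ± 0.08, adjusted p = 4.73e-05) and UTP20 had 458 and 543 on the MMS arrays, against 938 and 946 on the untreated arrays (-0.92 ± 0.10, adjusted p = 0.000358). Both untreated arrays were above both MMS arrays in these 4 genes, in 69 of the 70 genes of 60S assembly and in 51 of the 55 of the processome. Of all genes tested, 32.8% were lower in this way. RSA4 no longer passed without C406A MMS 1 or 2 or C406A untreated 2 (log2 change -1.05 to -0.90, adjusted p-values up to 0.0844).

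Of 18 genes of RNA polymerase I, 11 fell (61.1%) and none rose (median -0.41), including the largest subunits RPA190, with 1805 and 1817 with MMS and 2873 and 2931 without (-0.68 ± 0.07), and RPA135, with 1956 and 1767 with MMS and 2844 and 2920 without (-0.63 ± 0.09). Of 19 of RNA polymerase III, 6 fell (31.6%, median -0.19), led by RPC31, with 558 and 542 with MMS and 966 and 941 without (-0.79 ± 0.07, adjusted p = 0.000158). In these 3 genes no array of one group reached the other. The ribosomal proteins themselves moved little: of 82 cytosolic ones with a probe set of their own, 1 rose and 7 fell (8.54%, below the 11.2% of all genes), with a median of -0.04. Many of the other 57 have a near-identical copy and were not tested. RPS1B, the one that rose, had 7236 and 7426 with MMS and 6418 and 6574 without (0.17 ± 0.04), and its direction turned under 3 other scalings. Of 70 mitochondrial ribosomal proteins, 7 rose (10%, against 12.7% of all genes) and none fell (median 0.11). SFP1, an activator of ribosomal protein and biogenesis genes, had 223 and 209 with MMS and 229.5 and 236 without (-0.11 ± 0.13, adjusted p = 0.561) and did not pass. RPS1B no longer passed without C406A MMS 2 or C406A untreated 1 or 2 (log2 change 0.16 to 0.19, adjusted p-values up to 0.116). RPS1B did not pass with no trend in the variance (adjusted p = 0.077). RPS1B changed by -0.04 with median scaling and did not pass (adjusted p = 0.759). RPS1B passed under neither relative scaling (adjusted p-values up to 0.999). Under them RPS1B changed by -0.0003 and -0.0048.

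Of 37 translation initiation and elongation factors, 12 fell (32.4%) and none rose (median -0.12), with RLI1, a ribosome-recycling ATPase, at 938 and 871 with MMS and 1368 and 1312 without (-0.57 ± 0.13) and TIF35, of the initiation factor eIF3, at 1949 and 2269 with MMS and 3064 and 3130 without (-0.56 ± 0.11). Of 21 tRNA synthetases, 5 fell (23.8%) and none rose (median -0.09). GLN4, which charges glutamine tRNA, had 1121 and 969.9 with MMS and 1433 and 1602 without (-0.54 ± 0.08) and MES1, which charges methionine tRNA, had 2694 and 2740 with MMS and 3302 and 3278 without (-0.28 ± 0.05). All 4 were lower on both MMS arrays. RLI1 no longer passed without C406A MMS 2 or C406A untreated 1 (log2 change -0.54 to -0.51, adjusted p-values up to 0.0663). RLI1 and MES1 passed under neither relative scaling (adjusted p-values up to 0.357). GLN4 did not pass on deposited values relative to the median gene (adjusted p = 0.155).

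**Figure D3:**
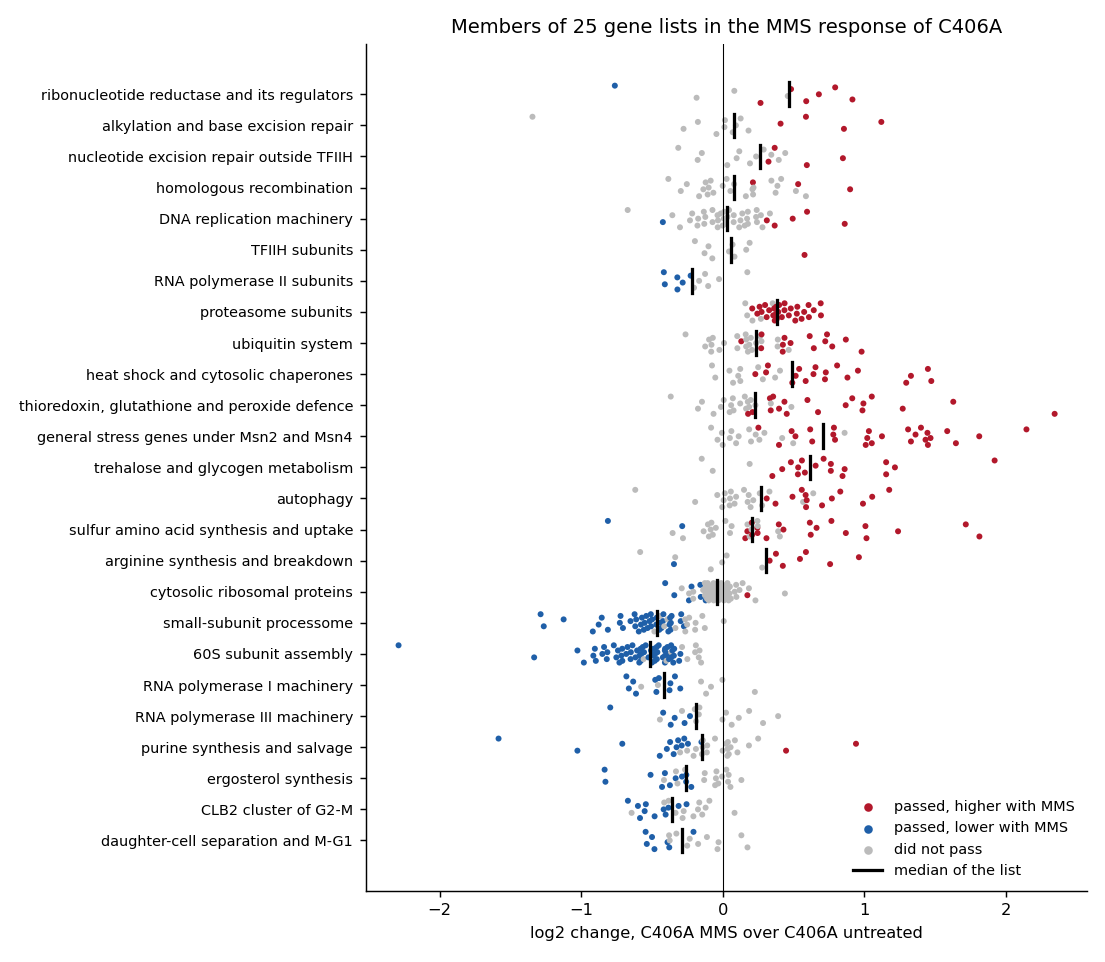
Each point is a tested member of 1 of 25 gene lists, placed by its log2 change in C406A with MMS over C406A without; red points rose, blue points fell, grey points did not pass, and the black bar is the median of the list. Medians run from 0.71 for the general stress genes to -0.52 for 60S subunit assembly; all proteasome points lie right of 0 and all 60S points left of it.

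In energy metabolism, 7 of 55 genes of the respiratory chain and ATP synthase fell (12.7%, near the 11.2% of all genes) and 1 rose, with a median of -0.04 (0.36 on values as deposited). CYT1, cytochrome c1, had 1271 and 1284 with MMS and 1770 and 1718 without (-0.45 ± 0.06), and COX5A, a subunit of cytochrome c oxidase, had 1888 and 1824 with MMS and 2368 and 2424 without (-0.37 ± 0.07). HAP4, the limiting subunit of the activator of respiratory genes, fell, with 962 and 878 on the MMS arrays, against 1290 and 1366 on the untreated arrays (-0.53 ± 0.09, adjusted p = 0.00297). CYC7, the minor cytochrome c of stressed cells, was the member that rose, with 153 and 139.5 on the MMS arrays, against 48.5 and 60.3 on the untreated arrays (1.43 ± 0.17, adjusted p = 0.000433). Of 17 hexose transporters and sensors, 2 rose and 6 fell (35.3%, median -0.15). The high-affinity carriers HXT7, with 5213 and 4815 with MMS and 3434 and 3527 without (0.53 ± 0.09), and HXT6, with 5117 and 4602 with MMS and 3774 and 3737 without (0.37 ± 0.07), rose; they are near-identical and cannot be told apart here. HXT2 fell most, with 1429 and 1327 with MMS and 2366 and 2399 without (-0.79 ± 0.11), and the low-affinity carrier HXT1 had 998 and 1109 with MMS and 1482 and 1516 without (-0.51 ± 0.08). Among 33 genes of glycolysis, fermentation and gluconeogenesis, 4 rose and 4 fell (12.1% each, median 0.00), near the background in both directions, with the aldehyde dehydrogenase ALD4 at 1770 and 1738 with MMS and 1207 and 1086 without (0.62 ± 0.10) and the phosphofructokinase subunit PFK2 at 3657 and 3564 with MMS and 4794 and 5092 without (-0.45 ± 0.05). HXT6 changed by 0.22 with median scaling and did not pass (adjusted p = 0.0771). CYT1, COX5A, HXT7, HXT6 and HXT1 passed under neither relative scaling (adjusted p-values up to 0.506). HAP4 and ALD4 did not pass on deposited values relative to the median gene (adjusted p-values up to 0.211).

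Of 36 purine genes, 13 fell (36.1%) and 2 rose (5.56%), with a median of -0.14. After AAH1, HPT1, which salvages hypoxanthine and guanine, had 506 and 500 on the MMS arrays, against 1027 and 1022 on the untreated arrays (-1.03 ± 0.09, adjusted p = 0.000127), and BAS1, an activator of the ADE genes, had 164 and 162 with MMS and 279 and 256 without (-0.71 ± 0.11). PHO2, the cofactor of Bas1 and Pho4, had 65.5 and 66.9 on the MMS arrays, against the floor on both untreated arrays, a rise of at least 1.92-fold (adjusted p = 0.00762). Of 18 pyrimidine genes, 7 fell (38.9%) and 3 rose (median -0.20). FUI1, the uridine permease, had 1214 and 1199 with MMS and 2395 and 2243 without (-0.94 ± 0.10) and URK1, uridine kinase, had 126 and 147 with MMS and 228 and 210.4 without (-0.69 ± 0.13). URA10, the minor orotate phosphoribosyltransferase, rose, with 144 and 179.8 with MMS and 55.4 and 61.5 without (1.46 ± 0.33), as did CDC21, thymidylate synthase, with 667 and 655 with MMS and 506 and 504 without (0.39 ± 0.07). All of these genes were separated between the groups, as were 34.3% of all genes upward and 32.8% downward. URA10 no longer passed without C406A MMS 2 or C406A untreated 1 (log2 change 1.30 to 1.40, adjusted p-values up to 0.0699). PHO2 changed by 2.58 with no floor and did not pass (adjusted p = 0.121). URA10 changed by 0.14 with the floor at the 40th percentile and did not pass (adjusted p = 0.257). BAS1, URK1 and CDC21 passed under neither relative scaling (adjusted p-values up to 0.388). PHO2 did not pass on deposited values relative to the median gene (adjusted p = 0.166).

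Of 27 ergosterol genes, 11 fell (40.7%) and none rose (median -0.26), including ERG5, the C-22 desaturase, with 515 and 531 with MMS and 987 and 874 without (-0.83 ± 0.11), CYB5, cytochrome b5, with 444 and 458 with MMS and 867 and 745 without (-0.83 ± 0.10), and ERG11, the lanosterol demethylase, with 3138 and 3169 with MMS and 4279 and 4210 without (-0.43 ± 0.05). Of 23 iron genes, 7 rose (30.4%) and 1 fell (median 0.19). TIS11, which speeds decay of messages for iron-using proteins, had 705 and 652 on the MMS arrays, against 253 and 257 on the untreated arrays (1.41 ± 0.09, adjusted p = 2.15e-05), and the siderophore transporters SIT1 and ARN1 had 1768 and 1648 with MMS and 872 and 1009 without (0.86 ± 0.10) and 1432 and 1379 with MMS and 748 and 846 without (0.82 ± 0.10). Of 17 phosphate and zinc genes, 5 fell (29.4%) and none rose (median -0.10), with the sodium-phosphate carrier PHO89 at 416 and 288 with MMS and 813 and 749.7 without (-1.17 ± 0.17) and the zinc carrier ZRT1 at 903 and 1008 with MMS and 1420 and 1548 without (-0.64 ± 0.09). Of 41 cell wall genes, 8 fell (19.5%) and 1 rose (median -0.08). SUN4, of cell separation, had 1373 and 1354 with MMS and 2134 and 2084 without (-0.63 ± 0.08), and the protease YPS6, the one that rose, had 135 and 128 with MMS and 70.4 and 49.5 without (1.15 ± 0.17). Of 38 genes of peroxisomes and fatty acid oxidation, 4 rose (10.5%, against 12.7% of all genes) and none fell (median 0.16). PEX30 had 237 and 209 with MMS and 121 and 119 without (0.89 ± 0.14). PEX30 changed by 0.58 with the floor at the 40th percentile and still passed. ERG5, ERG11 and ZRT1 did not pass on deposited values relative to the median gene (adjusted p-values up to 0.0926).

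Of 24 genes of the CLB2 cluster, expressed from G2 to mitosis, 11 fell (45.8%) and none rose, with a median of -0.36 (0.12 on values as deposited). ALK1, a mitotic kinase, had 321 and 293 on the MMS arrays, against 474 and 455 on the untreated arrays (-0.60 ± 0.10, adjusted p = 0.00208), and SWI5, the activator of M-G1 genes, had 485 and 441 with MMS and 709.6 and 676 without (-0.58 ± 0.15). Of 18 genes of daughter-cell separation and M-G1, 7 fell (38.9%) and none rose (median -0.29, and 0.11 on values as deposited). DSE2, a glucanase of the daughter side, had 1040 and 1100 with MMS and 1610 and 1494 without (-0.54 ± 0.10), ASH1, the daughter-specific repressor of mating-type switching, had 1061 and 992 with MMS and 1393 and 1511 without (-0.50 ± 0.07), and AMN1, an inhibitor of mitotic exit, had 1339 and 1164 with MMS and 1752 and 1736 without (-0.48 ± 0.07). All 5 were lower on both MMS arrays. SWI5 no longer passed without C406A MMS 2 or C406A untreated 1 or 2 (log2 change -0.62 to -0.52, adjusted p-values up to 0.11). The shares of cells in each cycle phase were not measured, and a lower level per cell and fewer cells in a phase cannot be told apart in bulk RNA; the same holds for every list here. ALK1, SWI5, DSE2, ASH1 and AMN1 passed under neither relative scaling (adjusted p-values up to 0.295).

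Of 20 G1-S regulators and cyclins, 3 rose (15%) and 2 fell (10%), with a median of -0.18. Both shares were near the 12.7% and 11.2% of all genes. After PLM2, its paralogue TOS4 had 195 and 197 with MMS and 145 and 143 without (0.45 ± 0.12), and the G1 cyclin CLN2 fell, with 889 and 804 with MMS and 1049 and 1027 without (-0.30 ± 0.08). Of 4 histone genes tested, the H2B genes HTB1, with 3036 and 3291 with MMS and 4206 and 4279 without (-0.42 ± 0.07), and HTB2, with 1612 and 1996 with MMS and 2383 and 2296 without (-0.38 ± 0.09), fell (50%, median -0.23); they are near-identical in coding sequence. Of 27 mating-pathway genes, 1 rose (3.7%) and 3 fell (11.1%, median -0.12), near the background of falls, among them FAR1, the pheromone-induced cyclin-kinase inhibitor, with 1270 and 1022 with MMS and 1663 and 1570 without (-0.50 ± 0.10). TOS4 no longer passed without C406A MMS 1 or 2 or C406A untreated 1 or 2 (log2 change 0.44 to 0.45, adjusted p-values up to 0.0962). CLN2 no longer passed without C406A MMS 2 or C406A untreated 1 or 2 (log2 change -0.31 to -0.22, adjusted p-values up to 0.139). HTB2 no longer passed without C406A MMS 1 or C406A untreated 1 or 2 (log2 change -0.41 to -0.23, adjusted p-values up to 0.0782). FAR1 no longer passed without C406A untreated 1 (log2 change -0.46, an adjusted p of 0.0518). CLN2, HTB2 and FAR1 did not pass in a fit of the 4 C406A arrays alone (adjusted p-values up to 0.103). TOS4, CLN2, HTB2 and FAR1 passed under neither relative scaling (adjusted p-values up to 0.61). HTB1 did not pass on deposited values relative to the median gene (adjusted p = 0.0745).

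Wild type and C406A share no array, and their responses were set side by side. In wild type 1771 genes passed (33%), 1027 up (19.1%) and 744 down (13.9%). Of the C406A rises, 572 were also rises in wild type, which is 83.6% of those of C406A and 55.7% of those of wild type; of the falls, 451 were shared, 74.7% and 60.6%. Across the 5369 genes the changes correlated with r = 0.769, where genes are not independent replicates. RIM13, a protease of the pH response, was the only gene that passed in opposite directions, with the floor on both MMS arrays, against 68.2 and 64 on the untreated arrays in C406A (adjusted p = 0.00182) and 47.6 and 47.8 with MMS, against 35.2 and the floor without, in wild type (adjusted p = 0.0393). All of these values are dim. List medians of both strains lay on the same side of 0 in the groups that moved most: 0.38 in C406A and 0.55 in wild type for the proteasome, 0.71 and 0.90 for the general stress genes, and -0.52 and -0.60 for 60S assembly.

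**Figure D4:**
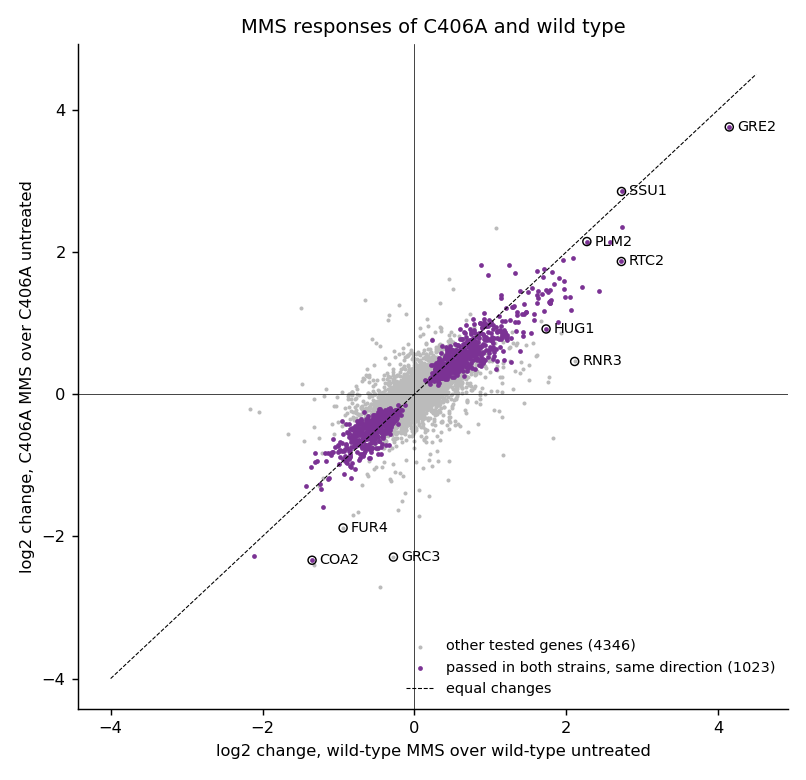
The log2 change with MMS in C406A (vertical axis) is plotted against that in wild type (horizontal axis) for 5369 genes; purple points are the 1023 genes that passed in both in the same direction, and the dashed line marks equal changes. GRE2 and SSU1 lie at the top right near the line, RNR3 and HUG1 lie below it, and GRC3 was low in C406A with a wild-type change of -0.28.

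No difference between the C406A and wild-type responses passed: 0 of 5369 genes (0%), with a smallest adjusted p of 0.0909 in limma, and 451 genes (8.4%) at an unadjusted p under 0.05. The 8 genes of smallest p follow as values. YJR115W had a change of -0.62 ± 0.24 in C406A and 1.82 ± 0.24 in wild type, a difference of -2.44 ± 0.35. In C406A it had 97.5 and 113 with MMS and 161 and 161 without, and its change did not pass (adjusted p = 0.0982 in limma). In wild type it had 145 and 159 with MMS, and its untreated values, 42.8 and 43.4, were near the floor of 34.5. RNR3 had a change of 0.46 ± 0.19 in C406A and 2.11 ± 0.19 in wild type (difference -1.65 ± 0.27, adjusted p = 0.0921); both untreated arrays of each strain were at the floor, so both changes are lower bounds, and the fitted difference depends on the floor. GRC3 differed by -2.01 ± 0.31 and RIM13 by -1.39 ± 0.21. The differences also moved over the alternative settings tried for these genes, other than leaving out an array. They ranged from -2.44 to -0.17 for YJR115W and from -2.14 to -0.51 for GRC3. For RNR3 the range was -1.74 to -0.98 and for RIM13 -2.02 to -1.39. Smaller differences with small errors were those of UBI4 (0.87 ± 0.06 in C406A and 1.43 ± 0.06 in wild type), ARP3, of the actin-nucleating complex (0.10 ± 0.04 and 0.49 ± 0.04), FRD1, a fumarate reductase (0.13 ± 0.05 and 0.54 ± 0.05), and RPL16B, a ribosomal protein (0.14 ± 0.05 and -0.34 ± 0.05). Group means follow, C406A first and wild type second. UBI4 had 2651 and 2840 with MMS and 1450 and 1057 without. ARP3 had 4542 and 4527 with MMS and 4231 and 3216 without. In both the strains lay further apart without MMS. FRD1 had 1861 and 2246 with MMS and 1698 and 1546 without. RPL16B had 9709 and 7723 with MMS and 8812 and 9793 without. In this pair the strains lay further apart with MMS. A p above the threshold does not show that the responses were alike: the median SE of a difference was 0.161. The count depended on single arrays, with 54 genes without C406A MMS 1, 20 without wild-type MMS 2, and 0 or 1 without any other; RNR3 and GRC3 were among those that passed without C406A MMS 1 (adjusted p = 0.00372 for each).

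Between the C406A and C403A responses 6 differences passed (0.112%), 4 of them higher in C406A (0.0745%) and 2 lower (0.0373%), with 572 genes (10.7%) at an unadjusted p under 0.05. RTC2 had 299 and 334 with MMS and 82.4 and 91.2 without in C406A, and 201 and 172 with MMS and 151 and 189 without in C403A, a difference in log2 change of 1.73 ± 0.20 (adjusted p = 0.0256). ADH5 had changes of 0.75 ± 0.10 in C406A and -0.41 ± 0.10 in C403A, a difference of 1.16 ± 0.14 (adjusted p = 0.0256), so its means moved in opposite directions in the mutants. YAP1801, a clathrin adaptor, had 1.04 ± 0.10 in C406A and -0.07 ± 0.10 in C403A, and SNZ1 had 0.76 ± 0.08 and -0.04 ± 0.08. The pair lower in C406A was UTP23, with -1.12 ± 0.08 in C406A and -0.27 ± 0.08 in C403A, and RBG1, a ribosome-associated GTPase, with -0.40 ± 0.04 and 0.05 ± 0.04. The differences of these 4 were 1.11 ± 0.15, 0.80 ± 0.11, -0.85 ± 0.12 and -0.45 ± 0.06, each with an adjusted p of 0.0296. The wild-type changes of the 6, in the order above, were 2.72, 1.02, 0.99, 0.24, -0.93 and -0.09; RTC2 was at the floor on both wild-type untreated arrays, so its value there is a bound in part.

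The number of these differences turned on single arrays. It was 0 without any 1 of 6 arrays (either C406A untreated array or any wild-type array), 1 without C406A MMS 2, 4 without C403A MMS 1, 13 without C403A untreated 2, 19 without C403A untreated 1, 21 without C403A MMS 2 and 64 without C406A MMS 1. Each of the 6 named genes lost its call without 7 or 8 of the 12 arrays, with adjusted p-values up to 0.18. All 6 also lost the call under both relative scalings and in a fit of the groups compared alone. All but RTC2 lost it with no trend in the variance, and RBG1 with median scaling. The RTC2 difference ranged from 0.95 to 1.73 over the settings other than leaving out an array. GRC3 and PPT2, which attaches the prosthetic group of mitochondrial acyl carrier protein, came next and did not pass (adjusted p = 0.0527 and 0.0527). The C406A change of PPT2 was -0.16 ± 0.13, with overlapping arrays, and its C403A change was 1.01 ± 0.13.

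**Figure D5:**
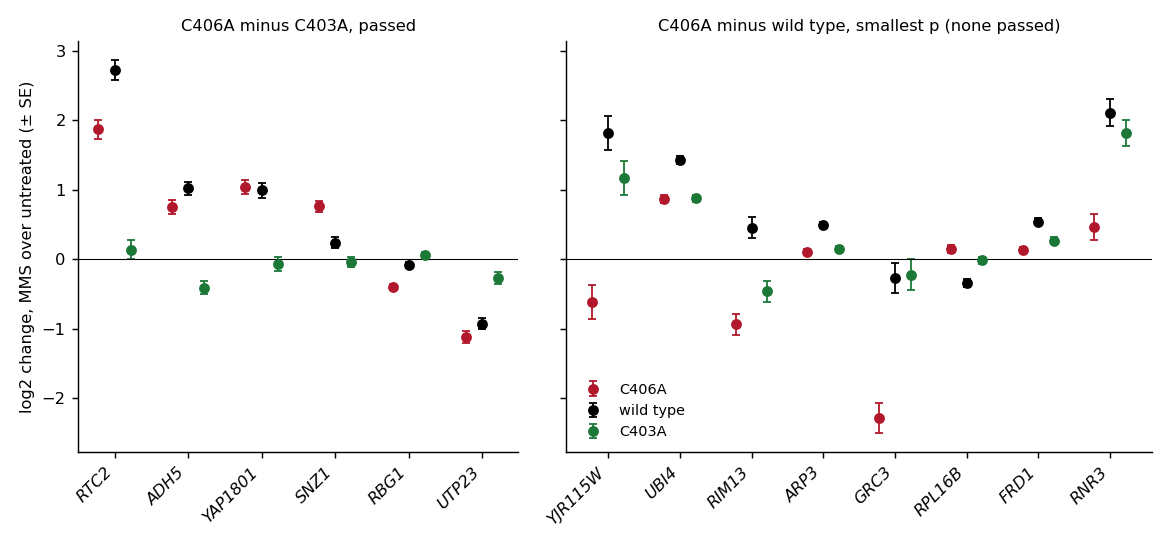
Log2 changes with MMS, with the SE of the fit as bars, are shown in C406A, wild type and C403A for the 6 genes that passed between C406A and C403A (left) and the 8 of smallest p between C406A and wild type, none of which passed (right). On the left C403A lies near 0 in RTC2, YAP1801, SNZ1 and RBG1; on the right C406A lies below wild type in every gene but RPL16B.

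At the threshold of the C406A response itself, SMP1, a MADS-box factor, had 154 and 155 with MMS and 226 and 234 without (-0.58 ± 0.19) and GLN1, glutamine synthetase, had 4452 and 5483 with MMS and 6018 and 5743 without (-0.25 ± 0.08), both just inside. TFG1, the largest subunit of TFIIF, had 742 and 730.5 with MMS and 620.2 and 650 without (0.21 ± 0.07) and YIH1, an inhibitor of the kinase Gcn2, had 812 and 721 with MMS and 892 and 891 without (-0.22 ± 0.07), both just outside. The adjusted p of the 4 lay between 0.0499 and 0.0501. In all 4 the arrays of the groups did not overlap, as was the case for 1843 genes higher with MMS (34.3% of those tested) and 1760 lower (32.8%). SMP1 no longer passed without C406A MMS 1 or 2, C406A untreated 1 or 2, wild-type untreated 1 or 2 or C403A untreated 1 or 2 (log2 change -0.60 to -0.56, adjusted p-values up to 0.176). GLN1 no longer passed without any 1 of 11 arrays (all but C406A MMS 2) (log2 change -0.28 to -0.10, adjusted p-values up to 0.235). Its change was -0.40 without C406A MMS 2.
 GLN1 did not pass in a fit of the 4 C406A arrays alone (adjusted p = 0.206). SMP1 and GLN1 did not pass with no filter on dim genes (adjusted p-values up to 0.0807). SMP1 and GLN1 did not pass with no floor (adjusted p-values up to 0.0574). SMP1 and GLN1 did not pass with no trend in the variance (adjusted p-values up to 0.0907). SMP1 did not pass with median scaling (adjusted p = 0.0671). GLN1 changed by -0.45 with median scaling and still passed. SMP1 and GLN1 passed under neither relative scaling (adjusted p-values up to 0.357). Under them GLN1 changed by -0.41 and -0.42.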

How the data were processed

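Arrays were of the one-colour Affymetrix kind. The authors deposited a signal intensity for each probe set, linear per the file headers; how probes were summarized or scaled is unknown here. Below 0 lay 8.95% of deposited values, and 0 columns belonged to other samples. Because array medians exceeded a 1.5-fold range, probe sets other than 60 controls were quantile normalized, raised to the 20th percentile where lower, and put on the log2 scale. The name table gave 1 gene to 6504 of 9335 probe sets, several to 328 and none to 2503; only the first kind entered, the brightest per gene (5656 genes), and 287 genes were dropped for reaching above the floor on fewer than 2 arrays. Where a called gene had other probe sets (59 genes), 9 had one of opposite sign. A group wholly at the floor gives a bound ("at least") and an understated spread.

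A model of 6 group means was fitted with limma 3.58.1 (R 4.3.3; lmFit, then eBayes with trend, no block; 6 residual and 3.53 prior degrees of freedom). Contrasts were MMS minus untreated within each strain, and C406A minus wild type or C403A between those. Scripts were tested on simulated data. Genes and the 56 lists were chosen with earlier results of these data known: the 15 largest changes each way, at most 4 rising and 4 falling members per list by size, the 8 smallest p-values of a difference, 2 genes either side of the threshold, and a fixed set, of which 1 gene is not reported here. The 15 largest changes each way came only from genes that passed with no overlap between MMS and untreated arrays of C406A. Array numbers follow listing order and pair nothing. Other scalings, floors, filters, variance models, probe-set rules, sample sets and a 2-fold minimum were tried. Plots came from matplotlib 3.10.9 (Python 3.11.15).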

Additional observations from a re-analysis of the deposited data

Results flagged for a closer look

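Differences between the responses of C406A and C403A passed the test of the difference itself in 6 genes. In log2 units, C406A minus C403A, they were 1.73 for RTC2, 1.16 for ADH5, 1.11 for YAP1801, 0.8 for SNZ1, -0.45 for RBG1 and -0.85 for UTP23. At an adjusted p under 0.05 the wild-type response passed in all of them but RBG1. None of the 6 differed between C406A and wild type at that threshold. The calls turn on single arrays, on the scaling and on the fit, as given above.

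Some probe sets outside the comparisons passed as well, a smaller share than the 24% of genes. Of 1497 tested probe sets with no gene in the name table, 101 (6.75%) passed in the C406A response, in a fit over 7845 probe sets, 51 up and 50 down, and 19 of these by at least 2-fold, 9 up and 10 down. Of 301 with several genes, 18 passed (5.98%). No gene is given to either kind here.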

How the results depend on the processing

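The C406A response held 947 to 1561 genes under every alternative with all 12 arrays or the 4 compared, and 104 with a 2-fold minimum; leaving out 1 array gave 672 to 1409. The difference from wild type held 3 genes on values as deposited, 3 with hybridization control scaling, 6 with no filter, 1 with no trend, 1 over the groups compared and 0 to 54 without 1 array. The difference from C403A held 2 on values as deposited, 18 with the 40th percentile floor, 15 with no filter, 1 with no trend, 14 with the mean of probe sets, 0 over the groups compared, 3 with a 2-fold minimum and 0 to 64 without 1 array. Hybridization control scaling gave 4 for the difference from C403A.

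Of 160 named genes that passed, 74 kept the call under every alternative run for them, 83 lost it under a setting other than leaving out an array and 39 without 1 array, some of them under both. The 74 include dim genes that the higher floor left out of the test, CTT1 and CYC7 among them. Whether those genes would keep the call at that floor was not tested. RPS1B reversed, to -0.0418 with median scaling, -0.0003 on deposited values relative to all genes and -0.0048 with hybridization controls relative to all genes. Among genes that did not pass, the same settings gave -0.085, -0.0435 and -0.048 for SSL1, -0.20, -0.16 and -0.17 for GCN4 and -0.11, -0.0646 and -0.0691 for RPL16B, and the first and last gave -0.0395 and -0.0026 for ARP3. Leaving out 1 array gave -2.7461 to 0.0532 for APN1, -0.0832 to 0.1719 for SSL1 and -0.0107 to 0.0265 for GCN4.

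Medians that lay below 0 turned positive on values as deposited and, where a second value follows, with hybridization control scaling, which both keep the higher signal of the MMS arrays: RNA polymerase II subunits 0.188 and 0.008, cytosolic ribosomal proteins 0.195 and 0.015, RNA polymerase I machinery 0.023, RNA polymerase III machinery 0.282 and 0.102, tRNA synthetases 0.264 and 0.084, translation initiation and elongation factors 0.222 and 0.048, respiratory chain and ATP synthase 0.359 and 0.179, hexose transporters and glucose sensors 0.134, purine synthesis and salvage 0.208 and 0.028, pyrimidine synthesis and salvage 0.167, ergosterol synthesis 0.156, phosphate and zinc uptake 0.183 and 0.003, G1-S regulators and cyclins 0.289 and 0.109, histones 0.207 and 0.027, CLB2 cluster of G2-M 0.118, daughter-cell separation and M-G1 0.105, mating pathway 0.355 and 0.175, cell wall proteins and synthesis 0.213 and 0.033. The median of other amino acid genes under Gcn4 was -0.051 with median scaling, -0.009 on deposited values relative to all genes and -0.014 with hybridization controls relative to all genes, and that of TFIIH -0.059 to 0.08 over the fits without 1 array. Apart from the scaling, the causes were not tested. No paired analysis was possible because the labels number no replicates. Scan day as a block was not run, since all arrays were scanned on 1 day. With 2 arrays in each group, dim genes near the floor and changes under the SE are the limit.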

Other observations

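Small nuclear and nucleolar RNA genes were singled out after the values of SNR33, SNR4 and SNR9 were seen, and those 3 are counted here. Of 46 SNR genes tested in C406A, 19 fell (41.3%, against 11.2% of all genes) and 1 rose, with a median change of -0.36. In wild type 19 fell and none rose (median -0.43), where 13.9% of all genes fell. In C403A 5 fell (median -0.24), where 383 of the 5369 genes tested fell. No difference between C406A and wild type passed in these genes (smallest adjusted p = 0.263 in limma). These RNAs guide modification and processing of ribosomal RNA or take part in splicing.

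The second C406A MMS array stood apart in a small set of genes, noticed after the values were seen. Of the 19 genes over 4-fold apart between the C406A MMS arrays, 15 were lower on the second, against 1 to 10 genes over 4-fold apart in the other 5 groups. ZRT2, the low-affinity zinc carrier, had 860 and the floor on the MMS arrays, against 1111 and 1148 on the untreated arrays. MRPL31, a mitochondrial ribosomal protein, had 383 and the floor, against 366 and 389. KAP120, a karyopherin, had 413 and the floor, against 236 and 224. In these 3 genes the first MMS array lay near or above the untreated arrays and the second at the floor, and none passed (adjusted p = 0.0953, 0.155 and 0.454 in limma). In the opposite direction MMS1, a subunit of a ubiquitin ligase of replication repair, had 220 and 1132 with MMS, against 215 and 274 without (adjusted p = 0.207). Of the 19, FDO1 rose and SNR33 and FUR4 fell by the test. What sets these probe sets apart was not tested.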
